A study of Mus musculus with 4 samples.

Results

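Ependymal cells were defined here as cell barcodes of 4 mouse brains with at least 15 unique molecular identifiers (UMIs, each counting 1 captured RNA molecule) of the genes Ccdc153, Tmem212, Dynlrb2, Rsph1 and Foxj1 together and under 10 UMIs of the choroid plexus genes Kl, Kcnj13, Folr1 and Clic6 together. Barcodes also had to hold at least 1000 UMIs, of which at most 15.8% came from the mitochondrial genome. These limits gave 1140 ependymal cells among the 30941 barcodes within the limits on UMIs and mitochondrial share (3.68%) and among 36876 deposited barcodes. The study addressed aging and dietary fiber, here the fermentable fiber inulin, with microglia as its main interest. Whole brains of 4 male C57BL/6J mice were profiled as single cells in droplets, with 1 mouse in each combination of age and diet, after enzymatic dissociation and removal of debris, red blood cells, myelin and dead cells. At the start of feeding the adult mice were aged 3 to 4 months and the aged mice 23 to 24 months, and the AIN-93M diet of every mouse, in a modified form, held 1% cellulose and either 0% inulin (low fiber) or 5% inulin (high fiber). The adult mice fed 0% and 5% inulin gave 272 and 235 ependymal cells, and the aged mice fed 0% and 5% inulin gave 284 and 349. A comparison of ages or diets rested on 2 mice against 2, of which the 2 of an age differed in diet.

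Ependymal cells line the ventricles of the brain and carry tufts of motile cilia that move the cerebrospinal fluid. A motile cilium is built on doublet microtubules with dynein arms as motors, radial spokes and a central pair that coordinate the beat, and intraflagellar transport trains that carry parts to the tip. The transcription factor Foxj1 switches on the genes of this machinery, and the cells also form the border between the fluid and the tissue, where they can answer immune signals such as interferons. Interferons act through receptors at the cell surface and induce antiviral genes together with the MHC class I antigen presentation pathway.

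The adult mice fed 0% and 5% inulin had a median of 14895.5 and 14193 UMIs per ependymal cell, and the aged mice had 14753 and 14310, so the depth per cell was similar across the 4 mice. Summed over the members, this gave 5101470, 4214771, 5782135 and 6568110 UMIs in the same order. The median share of mitochondrial UMIs was 5.69% and 5.68% in the adult mice and 6.21% and 6.70% in the aged mice. Of the 1140 members, 58 (5.09%) were called doublets and 301 (26.4%) held at least 10 UMIs of the microglia, endothelial, oligodendrocyte, neuron or red blood cell markers. That count leaves out astrocyte and choroid plexus markers, of which 990 and 1139 members held at least 10 UMIs. Taken alone, the neuron markers reached 10 UMIs in 231 members, the endothelial ones in 65, the microglia ones in 51 and the oligodendrocyte ones in 1. Of the neuron markers, Meg3 had a UMI in 82.9% of the members and Snhg11 in 28.4%. Snap25, Syt1 and Rbfox3 had a UMI in 0.614% to 2.46%.

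The genes that chose the cells are given as a description. Tmem212, a transmembrane protein of ciliated cells, stood at 2209 and 2253 CPM (the UMIs of a gene as a share of all UMIs of the sum, after TMM scaling of the library sizes) in the adult mouse without inulin and the one with it, and at 2262 and 2225 CPM in the aged mice. Ccdc153, another gene of ciliated cells, stood at 1926, 1999.9, 2042 and 2003 CPM in that order. Rsph1, a radial spoke head protein, was at 1017, 1075, 934 and 1008 CPM. The levels of these 3 genes differed little between mice, and each had a UMI in 98.4% to 99.4% of the members. Dynlrb2, a dynein light chain, lay between 729.9 and 823 CPM, and Foxj1 between 569 and 661 CPM. The choroid plexus genes that the rule limited had means (unscaled CPM) of 7.06 CPM for Kl, 7.49 CPM for Kcnj13, 123 CPM for Folr1 and 31.4 CPM for Clic6, against 847, 1026, 1262 and 475 CPM in choroid plexus epithelium. Folr1 had a UMI in 74.7% of the members and Clic6 in 35.6%. Around the limit, 37 members held 15 to 19 UMIs of the 5 genes with a median of 2987 UMIs per barcode, and 60 barcodes just outside held 10 to 14 with a median of 2305. A further 1264 barcodes met the limit on the 5 genes but exceeded the choroid plexus limit, 1162 of them with 15 or more choroid plexus UMIs and a median of 80109 UMIs per barcode, and these were left out.

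Some genes that the rule did not use were also more abundant in the members than in the other barcodes. Among 3973 genes with at least 50 CPM in ependymal cells, 352 were more than 10-fold higher than in all other barcodes within the limits, as a description without a test. The limit on CPM was set on ependymal cells, where these genes are high, so the count follows in part from that choice. The 5 genes of the rule also meet both limits. Col6a5, a collagen chain, had the largest fold (76.0-fold) and was seen in 28.6% of the members. Calb1, the calcium buffer calbindin, was 45.0-fold higher and had a UMI in 84.8% of them, and Slc14a2, a urea transporter, was 42.4-fold higher and was seen in 66.8%. Stoml3, a stomatin-like membrane protein, was 40.1-fold higher, and Krt15, a keratin, 38.2-fold. Sspo, which encodes SCO-spondin of the subcommissural organ, was 38.4-fold higher but had a UMI in only 5.70% of the members. Of the members, 24 held at least 10 UMIs of Sspo, which makes this level the property of a small subset. Across the 4 mice there were 3, 8, 2 and 11 such cells.

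Interferon-induced and MHC class I genes were higher in aged ependymal cells. Counts were summed over the members of a mouse and tested with edgeR's quasi-likelihood test, and a gene was called when its Benjamini-Hochberg adjusted p was under 0.05 and its fold at least 1.5. Of 14721 genes tested, 234 were higher (1.59%) and 97 lower (0.659%) in aged mice. These counts were 343 and 261 without the aged mouse fed 5% inulin, 288 and 169 without the aged mouse fed 0% inulin, and 146 and 42 with DESeq2. Of the 60 genes of an MHC and interferon list, all of them tested, 51 were higher and 0 lower, with a median log2 fold change of 2.496 against -0.00046 over all genes tested. This list had been chosen with earlier results of these data known, so its count is a description and not independent evidence. In all other barcodes within the limits, summed per mouse over all cell types, 60 of 60 had positive values and 30 were higher (2.9% of all genes tested), with a median log2 fold change of 0.79. The difference from those barcodes was not tested.

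Isg15 (ENSMUSG00000035692.7, chr4:156199424-156200818 of GRCm38), a ubiquitin-like protein that is attached to other proteins, was at 16.3 and 9.83 CPM in the adult mice and 664 and 470.1 CPM in the aged mice. Bst2 (ENSMUSG00000046718.8, chr8:71534255-71537456), which tethers budding viruses to the cell surface, was at 45.4 and 50.8 CPM in the adult mice and at 743 and 665 CPM in the aged mice. Ifi44 (ENSMUSG00000028037.13, chr3:151730922-151749960), an interferon-induced gene, was at 2.71 and 1.64 CPM against 192 and 158 CPM. For all 3 genes both aged mice lay far above both adult mice, and the aged mouse fed 0% inulin was the highest. An absence of overlap alone was common, at 46.1% of all genes tested. In the edgeR quasi-likelihood test the log2 fold change was 5.41 ± 0.20 (SE) for Isg15 (adjusted p = 1.01e-08), 3.87 ± 0.095 for Bst2 (adjusted p = 5.46e-10) and 6.28 ± 0.18 for Ifi44 (adjusted p = 2.27e-09).

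The promoters of many of these genes hold the same short sequence. An interferon-stimulated response element, searched on both strands as GAAA, NN and GAAA in a row (N being any base) in the 300 bases from 250 before to 50 after the start of a gene (RefSeq, GRCm38.p6), was present in 19 of the 40 higher list genes with a promoter in the table (47.5%), against 943 of all 27025 promoters (3.49%). Among all genes called higher, 52 of 165 promoters held it (31.5%), and among those called lower 0 of 66. A match is a description of the letters and not a site shown to be bound. The stretches below show it upstream of 6 higher genes, read on the strand of the gene, with the matches in capitals (on the opposite strand they read TTTC, NN and TTTC).
Bst2 (chr8:71537557-71537626, minus strand): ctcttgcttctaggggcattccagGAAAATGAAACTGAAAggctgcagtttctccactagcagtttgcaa
Isg15 (chr4:156200845-156200914, minus strand): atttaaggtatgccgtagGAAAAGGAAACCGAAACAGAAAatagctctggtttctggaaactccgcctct
Ifit1 (chr19:34640774-34640843, plus strand): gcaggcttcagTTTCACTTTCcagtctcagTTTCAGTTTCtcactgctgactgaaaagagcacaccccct
Ifit3 (chr19:34583377-34583446, plus strand): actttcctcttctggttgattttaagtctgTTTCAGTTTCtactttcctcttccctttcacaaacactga
Rsad2 (chr12:26456533-26456602, minus strand): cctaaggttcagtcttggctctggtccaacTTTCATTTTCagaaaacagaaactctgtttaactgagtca
B2m (chr2:122147518-122147587, plus strand): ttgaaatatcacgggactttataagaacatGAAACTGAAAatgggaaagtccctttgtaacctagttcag
In these stretches Isg15 carries overlapping copies within a single run, Ifit1 has a pair of separate ones, and the others hold 1 match or an overlapping pair. Ifit3 has 2 matches upstream of its start, of which 1 lies outside the stretch shown. Ifit3b, a neighbour of Ifit3, has the same stretch.

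**Figure D1:**
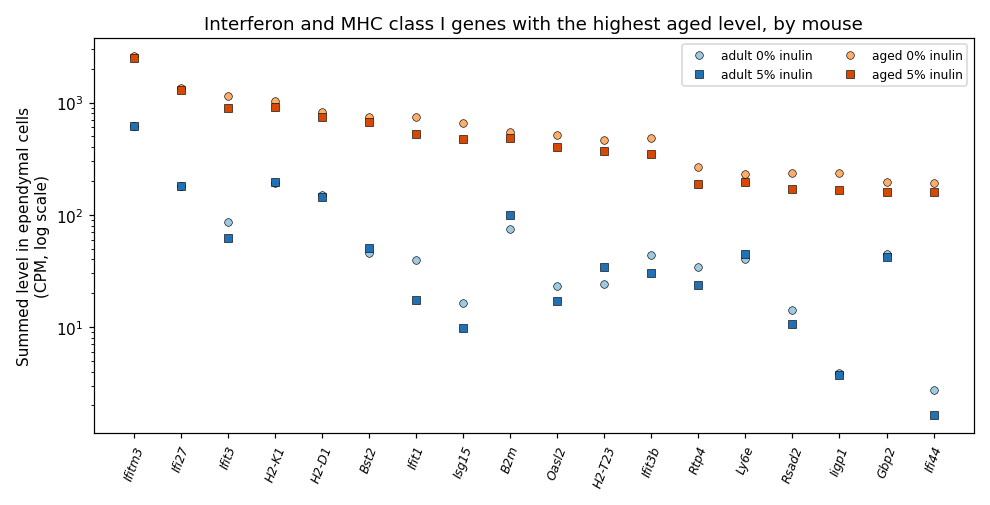
Summed level in ependymal cells (CPM, log scale) of the 18 higher interferon and MHC genes with the highest aged level, 1 point per mouse. These genes were chosen among those called higher in aged mice, so the position of the aged mice (orange) above the adult mice (blue) follows from the choice, and the plot shows the level of each gene and the spread between mice.

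Other effectors moved in the same direction. Ifit1, which binds foreign RNA, was at 39.7 and 17.3 CPM in the adult mice and 751 and 520.3 CPM in the aged mice. Ifit3 was at 87.0 and 62.5 CPM against 1145 and 888 CPM, and Oasl2, an oligoadenylate synthetase-like protein, at 23.1 and 16.9 CPM against 517 and 399.5 CPM. These 3 genes did not overlap between ages, like 46.1% of all genes tested. The fold changes of Ifit1, Ifit3 and Oasl2 were 21.8, 13.5 and 22.7 (adjusted p of 7.88e-07, 2.25e-08 and 3.91e-09, edgeR). Rsad2, the antiviral enzyme viperin, rose 16.1-fold and Usp18, which removes Isg15 from proteins, rose 19.2-fold. Iigp1, an immunity-related GTPase, and Ifi27l2a rose 52.1-fold and 41.7-fold, and the GTPase gene Gbp3 rose 10.7-fold. Ifitm3, a membrane protein that blocks viral entry, was the most abundant gene of the list in ependymal cells, at 617 and 614 CPM in the adult mice and 2613 and 2518 CPM in the aged mice (4.17-fold, adjusted p = 2.93e-09). Ifi27 rose from 181 and 179 CPM to 1339 and 1299.7 CPM.

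The apolipoprotein L genes Apol9a and Apol9b had the highest folds outside the list among called genes with a mean of at least 20 CPM. Apol9b (chr15:77729039-77736382) had 0 UMIs in both adult mice and 351 and 255 UMIs in the aged mice, at least 152-fold higher when 3 UMIs are allowed over the adult group. Apol9a (chr15:77403789-77411135) had 7 and 1 UMIs in the adult mice against 686 and 549 in the aged mice. Both are nearly the same in sequence, and how their UMIs divide between them is uncertain. AW011738, which lies next to Isg15 at chr4:156203304-156205151, rose 8.85-fold, and Gbp7, another GTPase gene, rose 6.80-fold. Zfp419, a zinc finger gene among the 15 with the largest fold over other barcodes, was at 19.97 and 20.6 CPM in the adult mice and 81.8 and 99.1 CPM in the aged mice (4.47-fold, adjusted p = 4.39e-07, edgeR). Caly, a clathrin-binding vesicle protein, rose 2.33-fold.

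Genes of MHC class I presentation rose, from the proteasome to the heavy chains. H2-D1 and H2-K1, the classical heavy chains, were at 148 and 143 CPM and at 190.2 and 197 CPM in the adult mice. In the aged mice they were at 825 and 746 CPM and at 1024 and 918 CPM, and the fold changes were 5.38 and 5.02. B2m, the shared light chain, was at 75.02 and 99.7 CPM against 543 and 487 CPM (5.91-fold, adjusted p = 5.65e-08, edgeR). The nonclassical gene H2-T23 rose 14.4-fold. H2-Q7 rose 19.1-fold (UMIs of 11 and 15 in the adult mice), but H2-Q genes are near-identical copies whose counts cannot be separated with certainty. Psmb8, a subunit of the immunoproteasome that cuts peptides for presentation, rose 7.76-fold and Tap1, a peptide transporter, 3.87-fold. Of the interferon regulatory factors, Irf7 rose 17.95-fold and Irf9 4.83-fold.

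The 9 list genes that were not called included the MHC class II genes. Cd74, the class II invariant chain, was at 111 and 3.98 CPM in the adult mice and 4.35 and 35.4 CPM in the aged mice, so the ages overlapped. In the adult mouse fed 0% inulin 550 of its 575 UMIs lay in 1 barcode. H2-Aa followed the same order of mice, at 41.7, 1.40, 2.26 and 9.77 CPM. Irf8, Ifitm1, Ifitm2, H2-Ab1 and H2-Eb1 were also not called, and Nlrc5 and Isg20 had positive log2 fold changes of 1.27 and 0.96 with adjusted p of 0.0885 and 0.104 (edgeR). Without the adult mouse fed 5% inulin, and likewise without either aged mouse, 3 or 4 genes of the list were called lower.

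The rise was spread over the aged cells and was not carried by a few. Counted cell by cell, the 60 genes made up a median of 19.9 and 19.2 UMIs per 10000 in ependymal cells of the adult mice and 128 and 102 UMIs per 10000 in those of the aged mice. The 95th percentile of all adult cells was 44.5 UMIs per 10000, and 89.8% and 90.8% of the aged cells lay above it, against 5.51% and 4.68% of the adult cells. The 5th percentile of the aged cells was 28.9 and 28.6 UMIs per 10000, above the adult medians. Isg15 had a UMI in 13.2% and 10.6% of adult and 76.8% and 66.2% of aged ependymal cells. After thinning to 2000 UMIs, with shallower cells left out (271, 233, 281 and 346 ependymal cells kept), these shares were 2.58% and 0.858% against 47.7% and 37.0%, while in astrocytes they were 0.785% and 0.976% for the adult and 1.61% and 2.30% for the aged mice (median depths of 6478 to 7076.5 UMIs before thinning). Cells are not replicates, and these shares describe the 4 mice.

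**Figure D2:**
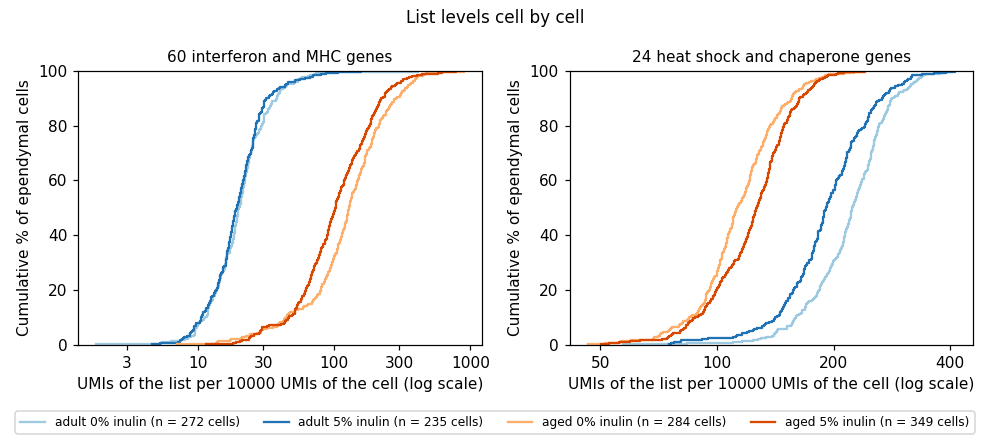
Cumulative share of ependymal cells (%) by the UMIs of a list per 10000 UMIs of the cell (log scale), 1 line per mouse, for the 60 interferon and MHC genes (left) and the 24 heat shock and chaperone genes (right). Aged lines lie to the right of the adult lines on the left panel, with medians of 128 and 102 against 19.9 and 19.2, and to their left on the right panel.

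The aged level was also read in members split by regional genes. Six3 marks ventral and anterior forebrain and Otx2 forebrain and midbrain, and each had a UMI in 28.9% to 34.2% and 38.7% to 45.5% of the members. After thinning the share with Otx2 was 11.03% to 12.9%, against 3.09% to 5.49% in astrocytes and 34.5% to 36.6% in choroid plexus epithelium, where Otx2 is a marker. Members with Six3 but not Otx2 had medians of 119 and 102 UMIs of the interferon list per 10000 in the aged mice and 20.7 and 17.7 in the adult mice. Members with Otx2 but not Six3 had 125 and 92.2 against 19.1 and 19.9. Members with neither gene had 158 and 121 against 19.2 and 18.9. The aged medians exceeded the adult ones in each of these sets, and which UMIs a cell shows also depends on its depth.

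A smaller group of complement and reactive glia genes rose as well. Of 24 genes tested of 34 listed, 9 were higher and 0 lower, beside 1.59% and 0.659% of all genes tested, with a median log2 fold change of 0.55. The 9 include Cxcl10 and Spp1, whose UMIs lay largely in few barcodes. In all other barcodes 13 of 33 were higher and 1 lower (2.9% and 0.893% of all genes tested), with a median of 0.51. In the tests between classes described below, 2 of 28 had a more positive and 1 a more negative age effect than in astrocytes (0.638% and 0.246% of all genes tested). Against choroid plexus epithelium 0 of 25 differed (0.305% and 0.131% of all genes tested). C3, the central complement component, was at 61.8 and 82.9 CPM in the adult mice and 317 and 291 CPM in the aged mice (4.22-fold, adjusted p = 2.67e-07, edgeR). C4b, of the classical complement pathway, was at 11.2 and 27.9 CPM against 122 and 160.4 CPM, and Gfap, the intermediate filament of reactive astrocytes, at 40.9 and 34.9 CPM against 127 and 222 CPM. Both aged mice were above both adult mice for these 3 genes, and Gfap was highest in the aged mouse fed 5% inulin. An absence of overlap between ages was seen in 46.1% of all genes tested. Gfap UMIs were found in 142 and 163 aged members and no barcode held over 9.56% of a mouse's aged UMIs. The summed level of 8 astrocyte markers in ependymal cells was 1953 and 1919.7 CPM (unscaled) in adult and 1917 and 1889 CPM in aged mice. Aqp4 and Gja1, also on the list of ependymal surface genes below, were the most abundant of them (means of 609 and 554 CPM). Slc1a2 and Aldoc, the markers with the highest levels in astrocytes, were at 203 and 249 CPM and at 180 and 180 CPM in the adult mice. In the aged mice they were at 153 and 193 CPM and at 176 and 258 CPM. The part of astrocyte RNA in the Gfap values was not tested. Vim, another intermediate filament, was not called, at 1444 and 1456 CPM against 1494 and 1694 CPM.

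Some of the highest folds rested on few barcodes. Cxcl10, an interferon-induced chemokine, was at 4.85 and 0.234 CPM in the adult mice and 239 and 109 CPM in the aged mice (62.6-fold, adjusted p = 2.41e-05, edgeR), yet only 47 and 48 aged members had a UMI of it, and 1 barcode held 29.4% and 40.1% of the UMIs. Ccl5, a chemokine of lymphocytes and macrophages, was at 12.5 CPM in the aged mouse fed 0% inulin and 88.6 CPM in the one fed 5%, with 72.2% and 48.5% of the UMIs in 1 barcode. For Spp1, osteopontin of activated microglia, 93.2% of the UMIs of the aged mouse fed 5% inulin lay in 1 barcode. T cell markers summed to 13.1 CPM in that mouse and to 1.19 to 1.57 CPM in the other mice, with Nkg7 the most abundant and Cd3e at 0 UMIs in 3 mice. The 8 microglia markers summed to 507 and 778 CPM in the adult and 617 and 438 CPM in the aged mice, with C1qa the most abundant. The endothelial markers summed to 461 and 512 against 444 and 763 CPM. Without the 301 members with microglia, endothelial, oligodendrocyte, neuron or red blood cell markers, 50 of 56 interferon genes and 7 of 20 complement and reactive glia genes were higher. Of all 12971 genes tested in that set, 194 were higher and 90 lower. Of the 301 members removed, 231 held at least 10 UMIs of the neuron markers, with Meg3 the most abundant, so mostly members with many Meg3 UMIs were left out. Members were not removed for astrocyte, choroid plexus, mural, neuroblast, tanycyte or T cell markers.

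Heat shock and chaperone genes were lower in aged ependymal cells. Of 24 genes, 0 were higher and 15 lower, beside 1.59% and 0.659% of all genes tested, with a median log2 fold change of -0.73. Lower values were not limited to these cells. In all other barcodes within the limits, summed per mouse over all cell types, 24 of 24 had negative values and 6 were lower (0.893% of all genes tested), with a median log2 fold change of -0.48. Hsp90aa1 had a log2 fold change of -0.69 there and of -0.73 in ependymal cells, and the difference from those barcodes was not tested. Hspb1 (ENSMUSG00000004951.10, chr5:135887919-135889563), a small heat shock protein, had the largest difference, at 304 and 320.0 CPM in the adult mice and 48.5 and 99.6 CPM in the aged mice (4.19-fold lower, log2 fold change -2.07 ± 0.22, adjusted p = 0.00011, edgeR). Hspe1 and Hspd1, which form the chaperonin of mitochondria, were at 1012 and 845 CPM and at 528 and 483 CPM in the adult mice. In the aged mice they were at 444 and 488 CPM and at 251 and 279 CPM, which was 1.99-fold and 1.91-fold lower. Hsp90aa1, the inducible cytosolic Hsp90 and the most abundant gene of the list, was at 6992 and 6167 CPM against 3799 and 4140.2 CPM (1.66-fold lower, adjusted p = 4.69e-05). The cochaperones Stip1, Dnajb1 and Dnaja1 were each 1.91-fold lower, and Hspa8, the constitutive Hsp70, 1.73-fold lower. No adult and aged values overlapped for any of these genes, which also held for 46.1% of all genes tested.

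Hspe1 and Hspd1 lie head to head on chromosome 1 (chr1:55088132-55091307 and chr1:55077835-55088243), where their annotated starts overlap. A heat shock element, searched on both strands as GAA, NN, TTC, NN and GAA in a row, was found in 3 of the 20 list promoters in the table (15%) and in 143 of all 27025 (0.529%). The list genes that were not called included the stress-inducible Hsp70 genes Hspa1a, at 147 and 195 CPM against 101.4 and 136 CPM, and Hspa1b, at 166 and 162 CPM against 106 and 115 CPM, which are near-identical copies. Hspa1b had an adjusted p of 0.000719 (edgeR) but a fold of 1.49, under the limit. Hsbp1, a heat shock factor binding protein, was at 304 and 294 CPM against 294 and 305 CPM. Cell by cell, the list made up a median of 224 and 191 UMIs per 10000 in adult and 113 and 126 in aged ependymal cells, and 76.4% and 59.3% of the aged cells lay below the 5th percentile of the adult cells (134).

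**Figure D3:**
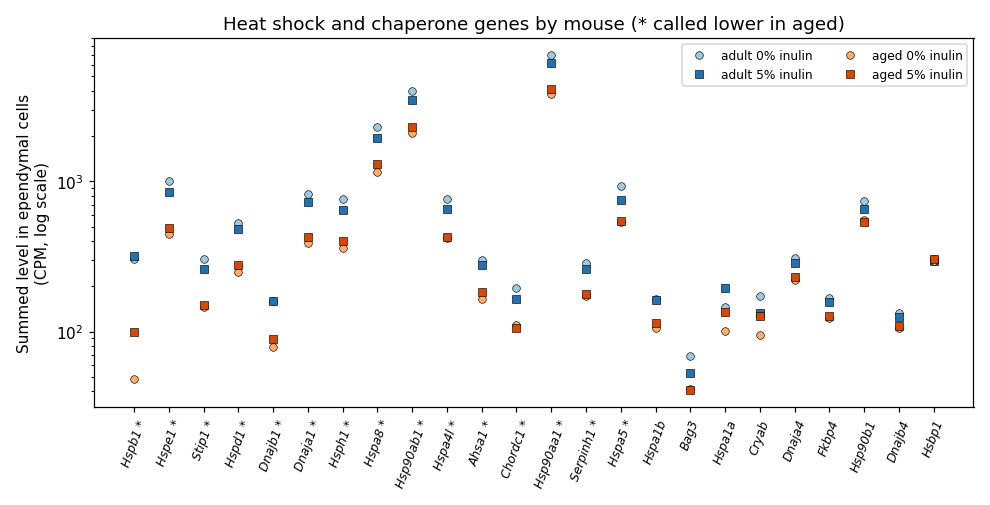
Summed level in ependymal cells (CPM, log scale) of the 24 heat shock and chaperone genes, 1 point per mouse, ordered by fold change. The 15 genes marked with an asterisk were called lower in aged mice, and Hsbp1 at the right was at 294 to 305 CPM in every mouse.

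Further genes were lower in aged ependymal cells. Ccnd2, a cyclin of the G1 phase, was at 180.5 and 195 CPM in the adult mice and 69.8 and 57.2 CPM in the aged mice (2.96-fold lower, adjusted p = 9.41e-07, edgeR). Ccnd1, its relative, was 2.67-fold lower (adjusted p = 0.041) and Sox11, a factor of immature neural cells, 3.13-fold lower, at 25.01 and 18.5 CPM against 8.53 and 5.58 CPM. Sox11 was lower in all other barcodes too (log2 fold change -1.66, adjusted p = 0.00159, edgeR, against -1.64 in ependymal cells). The 4 neuroblast markers include Sox11 and matched 5 gene entries, which were summed together. They summed to 130.0 and 127 CPM (unscaled) in adult and 77.3 and 85.4 CPM in aged ependymal cells, with Stmn1 the most abundant. In all other barcodes they summed to 243 and 269 CPM against 122 and 126 CPM, and their part in the Sox11 result was not tested. Ccnd1 and Sox11 were low, and the call of Ccnd1 was lost without the adult mouse fed 5% inulin (log2 fold change -1.05, adjusted p = 0.0939). Ahsa2, an Hsp90 cochaperone homologue outside the list, was 2.33-fold lower. Rspo3, a Wnt signalling enhancer, was at 31.02 and 46.6 CPM against 16.5 and 21.2 CPM, and Npy, the neuropeptide Y precursor, 1.83-fold lower. Krt15 and Krt18, both keratins, were 1.51-fold and 1.63-fold lower. Hoxb8, a hindbrain and spinal cord gene, had 11 and 10 UMIs in 3 and 7 adult members and 0 UMIs in both aged mice, at least 9.28-fold lower with 3 UMIs allowed over the aged group. Ptgds, the prostaglandin D synthase of meninges, was called lower, but 1 barcode held 57.3% and 41.8% of its adult UMIs. Gpr34, a microglial receptor, was called lower with an adjusted p of 0.0464, and the call was lost without the adult mouse fed 5% inulin (adjusted p = 0.178).

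Enpp2 and Ttr, both abundant in choroid plexus, were also lower in aged ependymal cells. Enpp2, autotaxin, was at 292 and 259 CPM in the adult mice and 122 and 147 CPM in the aged mice, and Ttr, the transthyretin made by choroid plexus, had a UMI in every ependymal cell. Ttr stood at 3141 and 2430 CPM (unscaled) in the adult and 1487 and 1777 CPM in the aged mice. In astrocytes Enpp2 was at 508 and 447 CPM against 211 and 205 CPM, and in choroid plexus epithelium Enpp2 was at 17553 and 17841 CPM against 16765 and 15283 CPM. The 9 choroid plexus markers, which include the 4 genes that the rule limited to a sum under 10 UMIs per cell, summed to 3702 and 2958 CPM in adult and 1796 and 2155 CPM in aged ependymal cells, with Ttr the most abundant. The part of RNA from other cells in these differences was not tested. With the members limited to the 536 with under 3 choroid plexus UMIs, 49 interferon genes were higher and 16 heat shock genes lower. Of all 12223 genes tested in that set, 172 were higher and 70 lower.

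None of the cilia genes met both limits of a call, while 9 had an adjusted p below 0.05 with folds under 1.5, 8 of them lower and 1 higher in aged mice. These 9 were chosen for naming after their values were seen. The share of all genes with an adjusted p below 0.05 at any fold is not given here, so they describe single genes and not their lists. Of all 14721 genes tested, 2328 had an unadjusted p under 0.05 (edgeR). The lists of ciliogenesis regulators, axonemal dynein arms, dynein arm assembly factors, radial spokes and central pair, doublet microtubule proteins and intraflagellar transport had 15, 27, 17, 33, 42 and 42 genes tested and 0 called, beside 1.59% higher and 0.659% lower of all genes tested. They include Foxj1, Dynlrb2 and Rsph1, which chose the cells. Without these 3 the median log2 fold changes of the 6 lists were 0.01, -0.10, -0.04, -0.11, -0.11 and -0.04, and 122 of 173 genes had negative values. Over all genes tested the median was -0.00046. Mns1, a protein inside the doublet microtubules, had the smallest adjusted p, at 674 and 674 CPM in the adult mice and 498 and 469.6 CPM in the aged mice (1.39-fold lower, adjusted p = 0.00161, edgeR). Its age effect was also more negative than in choroid plexus epithelium, by a log2 difference of -0.71 (adjusted p = 0.0225). Wdr63, of the inner dynein arms, was at 142 and 129 CPM against 97.3 and 93.8 CPM (1.42-fold lower, adjusted p = 0.00306), and Dnah6, a dynein heavy chain, was 1.30-fold lower (adjusted p = 0.00979). Both aged mice lay below both adult mice for these 3 genes, while 46.1% of all genes tested had no overlap between ages. Drc1, of the nexin-dynein regulatory complex, was 1.25-fold lower (adjusted p = 0.019) and Dnah12, another dynein heavy chain, 1.29-fold lower (adjusted p = 0.0258). Wdr35, Zmynd10 and Dnah10 had adjusted p of 0.0414, 0.0466 and 0.0492 with folds of 1.21 to 1.23. Rfx4, an RFX family factor, was the higher one, with a fold of 1.30 (adjusted p = 0.0386), and its age effect was more positive than in astrocytes, by 0.69 (adjusted p = 0.0126). Cfap54, of the central pair, was at 590.5 and 590.2 CPM in adult and 574 and 571 CPM in aged mice. Tuba1a and Tubb4b, tubulins of the doublets, were at 2623 and 2638 CPM and at 2293 and 2118 CPM in the adult mice. In the aged mice they were at 2400.3 and 2496 CPM and at 2033 and 2059 CPM. Among radial spoke and central pair genes other than Rsph1, 27 of 32 had negative values.

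Few genes of the remaining lists were called. Of all genes tested 1.59% were higher and 0.659% lower, so a single call describes that gene and not its list. In the list of ependymal surface, junction and transport genes 1 of 37 was higher, Vcam1, an adhesion molecule, at 8.72 and 9.60 CPM in the adult mice and 29.8 and 31.6 CPM in the aged mice (3.36-fold, adjusted p = 3.1e-05, edgeR). Of the iron, metal and redox genes 1 of 33 was higher, Gpx3, a secreted glutathione peroxidase, which rose 1.73-fold from a low level of 10.7 and 11.47 CPM, a call lost without the adult mouse fed 0% inulin (adjusted p = 0.0979) or the aged mouse fed 5% (adjusted p = 0.06). Mt1, a metallothionein, was at 5576 and 5553 CPM in adult and 8124 and 8345 CPM in aged mice, with a fold of 1.480 just under the limit (adjusted p = 2.68e-05). Nfkbia, an inhibitor of NF-kappaB, rose 1.73-fold among 22 immediate early genes, and fell under the fold limit without the aged mouse fed 0% inulin (log2 fold change 0.57). Trp53, the p53 tumour suppressor, rose 1.72-fold from 15.5 and 15.9 CPM to 27.1 and 26.8 CPM, and was the higher one of 14 senescence and growth arrest genes, of which Ccnd1 was lower. Lpl, lipoprotein lipase, was the only gene called of 33 lipid genes, and 70.7% of its UMIs in the aged mouse fed 5% inulin lay in 1 barcode, without which mouse the adjusted p was 0.191. Sox11 was the 1 called of 23 neural stem cell and tanycyte genes, Hoxb8 the 1 called of 31 regional genes and Npy the 1 called of 26 secreted signalling genes. The regional genes Irx5 and Irx3 were at 102 and 92.7 CPM and at 63.4 and 64.9 CPM in adult mice, against 116 and 107 CPM and 83.0 and 74.6 CPM in aged mice, and were not called.

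**Figure D4:**
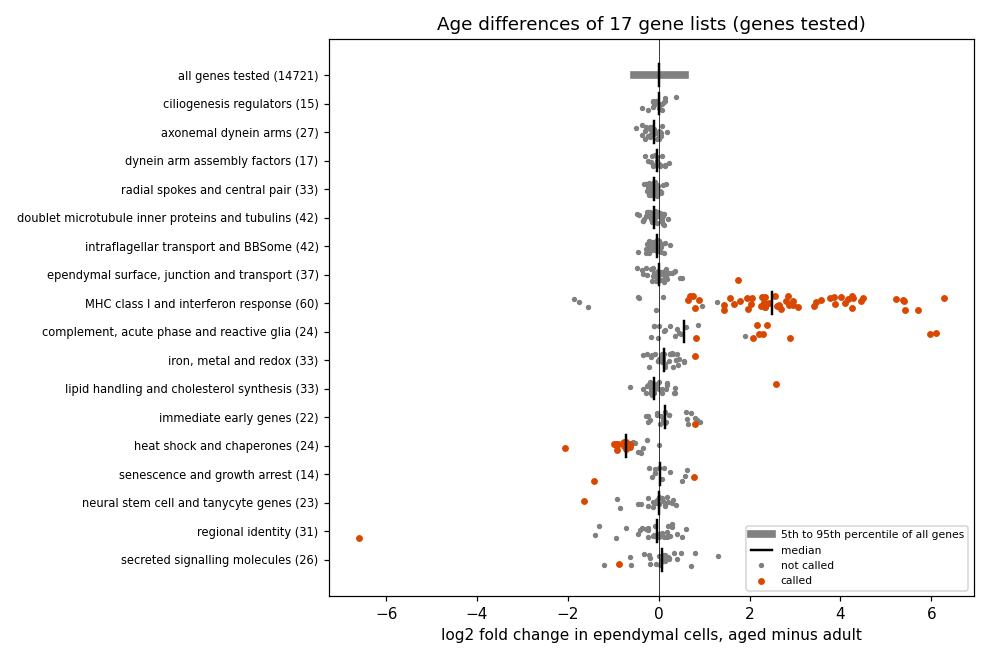
Log2 fold change (aged minus adult) in ependymal cells of every tested gene of 17 lists, with the number tested in brackets, called genes in orange and the median as a black line. The interferon list sits to the right (median 2.496), the heat shock list to the left (median -0.73), and the 6 cilia lists hold no called gene. Of all genes tested 1.59% were called higher and 0.659% lower.

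The age effect in ependymal cells differed from that in astrocytes. A model with mouse as a block tested the difference itself, with 5084 astrocytes of the same mice, chosen by at least 15 UMIs of Slc1a2, Aldoc, Gja1 and Ntsr2. Astrocytes also had to hold under 5 UMIs of the 5 ependymal genes and under 10 of the choroid plexus genes. They had to hold under 10 UMIs of C1qa, C1qb and C1qc and under 10 of Cldn5, Flt1 and Ly6c1, limits that ependymal cells did not have. Markers of the 5 other types counted above reached 10 UMIs in 25.2% to 28.3% of the ependymal cells and 3.59% to 6.69% of the astrocytes of a mouse. Of 17087 genes tested, 109 had a more positive (0.638%) and 42 a more negative (0.246%) age effect in ependymal cells. These counts were 244 and 149 without the aged mouse fed 0% inulin, 213 and 168 without the aged mouse fed 5% inulin, 113 and 94 without the adult mouse fed 0% inulin, and 41 and 14 with both classes thinned to 2000 UMIs. Of the 60 interferon genes 36 had a more positive effect and 0 a more negative one, with a median difference of 1.82 on the log2 scale. Isg15 was at 5.17 and 5.43 CPM in adult and 15.3 and 17.6 CPM in aged astrocytes, and its age effect was 3.81 larger in ependymal cells on the log2 scale (adjusted p = 0.000106, edgeR). Bst2 was at 33.6 and 28.9 CPM against 54.2 and 63.1 CPM in astrocytes, with a difference of 2.99 (adjusted p = 1.91e-05). In astrocytes alone 20 of 57 interferon genes were higher with a median log2 fold change of 0.85, beside 64 of 15951 genes higher (0.401%).

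Heat shock genes differed from astrocytes too. In astrocytes alone 0 of 24 were lower (0.207% of all genes tested) and the median log2 fold change was -0.18. Of 24 genes, 6 had a more negative age effect in ependymal cells and 0 a more positive one, with a median difference of -0.50. Hspb1 was at 100.4 and 72.0 CPM in adult and 87.5 and 116 CPM in aged astrocytes, so its age effect was lower by 2.35 on the log2 scale in ependymal cells (adjusted p = 0.000186, edgeR). Ccnd2 differed by -1.70 (adjusted p = 0.00017). Cldn11, a tight junction claudin, and Islr, Igfbp6, Ptgis and Rbp4 also had more negative effects, but in ependymal cells each was seen in at most 18 members of a mouse and 1 barcode held up to 83.3% of a mouse's UMIs. The call of Ptgis (-2.04) was lost without either adult mouse (-2.17 and -1.96) or without the aged mouse fed 5% inulin (-1.51).

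Choroid plexus epithelium, the other epithelium of the ventricles, was compared in the same way. It was chosen by at least 15 UMIs of Kl, Kcnj13, Folr1 and Clic6 and under 15 of the 5 ependymal genes, which gave 1333 cells. Of 16072 genes tested, 49 had a more positive (0.305%) and 21 a more negative (0.131%) age effect in ependymal cells. Of 60 interferon genes 21 had a more positive effect and 0 a more negative one, with a median difference of 0.90. Bst2 was at 196 and 216 CPM in adult and 1014 and 1153 CPM in aged choroid plexus epithelium, and the difference of 1.47 passed the test (adjusted p = 0.000555, edgeR). H2-T23 differed by 2.28 and Ifi27 by 1.83 (adjusted p = 0.000139 for each), and Psmb8 by 2.58 (adjusted p = 0.00151). Isg15 was at 2.95 and 9.67 CPM against 94.3 and 114 CPM there, with a difference of 1.15 that did not pass (adjusted p = 0.561). Ifit1 and Irf7 also did not pass, with differences of 0.23 and 0.64. In choroid plexus epithelium alone 31 of 56 interferon genes were higher with a median of 1.16, beside 70 of 13604 genes (0.515%). The count of more positive genes was 24 without the aged mouse fed 0% inulin and 111 without the adult mouse fed 5%.

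Ifi44 differed by 3.29 from choroid plexus epithelium (adjusted p = 0.0163), and the call was lost without the adult mouse fed 5% inulin (1.91) or without either aged mouse (3.30 and 3.26). Among genes with a more negative age effect than in choroid plexus epithelium were Hspb1 (-1.70, adjusted p = 0.000828), Krt18 (-0.91, adjusted p = 0.00313) and Enpp2 (-0.89, adjusted p = 0.00906, edgeR). In choroid plexus epithelium alone 3 of 24 heat shock genes were lower (0.154% of all genes tested), with a median of -0.39. Of the heat shock genes 4 of 24 had a more negative effect and 0 a more positive one, with a median difference of -0.25. Hspe1 was at 384 and 352 CPM in adult and 305 and 310.2 CPM in aged choroid plexus epithelium. Depth per cell differed between the classes, with medians of 22894.5 to 29733.5 UMIs in choroid plexus epithelium, and after thinning both classes to 2000 UMIs 11 genes were more positive and 11 more negative.

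**Figure D5:**
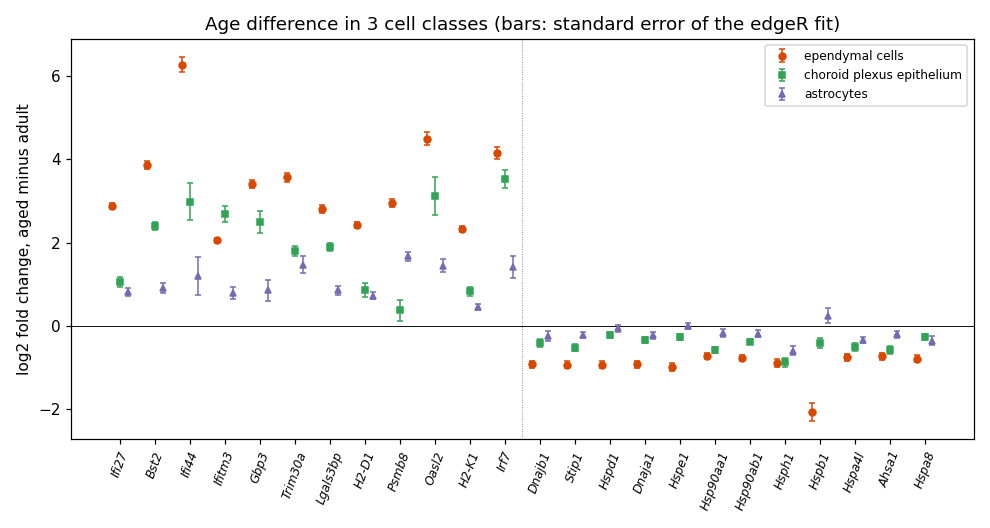
Log2 fold change (aged minus adult, with the standard error of the edgeR fit) of 12 interferon and MHC genes and 12 heat shock genes in ependymal cells (circles), choroid plexus epithelium (squares) and astrocytes (triangles). The 12 genes of each list are those called in ependymal cells with the smallest p there, so larger differences in ependymal cells follow in part from the choice. Of the interferon genes plotted, ependymal cells have the highest values except for Ifitm3, where choroid plexus epithelium is higher. Hspb1 has the lowest value of all, at -2.07 in ependymal cells.

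Inulin was compared in the same members. With 5% against 0% inulin 0 of 14721 genes were higher and 0 lower (0% called), 312 had an unadjusted p under 0.05, and DESeq2 called 3 higher (Spp2, Sspo and 6330403K07Rik). Sspo rested on few members. At least 10 of its UMIs were held by 3 and 2 members of the adult and aged mice fed 0% inulin and by 8 and 11 of those fed 5%. None of the 60 interferon genes was called for diet, and their median log2 fold change was -0.23, with 53 of 60 negative. The edgeR fit for diet held no term for age. The spread used in its test therefore includes the age differences, which are large for these genes. Isg15 was lower with 5% inulin at both ages, at 9.83 against 16.3 CPM in adult and 470.1 against 664 CPM in aged mice, but this rested on 1 mouse per diet and age. The heat shock genes were also not called. With age as a covariate 6 genes were called higher, Spp1, Ccl5, Retnlg, Fos, Egr1 and 6330403K07Rik, of which Spp1 and Ccl5 rested on few barcodes. With that covariate 861 genes had an unadjusted p under 0.05 (edgeR), and none of the called genes was on the interferon list. An absence of calls with 2 mice against 2 does not show that diet had no effect.

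The share of barcodes that were ependymal cells was 3.45% (exact 95% binomial interval 3.06% to 3.88%) in the adult mouse fed 0% inulin and 2.74% (2.41% to 3.11%) in the one fed 5%. In the aged mice it was 4.28% (3.81% to 4.797%) and 4.44% (3.99% to 4.91%). The means were 4.36% ± 0.109 (SD, n = 2) in aged and 3.10% ± 0.502 (SD, n = 2) in adult mice, a difference of 1.26 percentage points. The exact two-sided permutation test gave p = 0.333, the smallest that 2 mice against 2 allow, and by diet p = 1. The intervals cover counting error only. Recovery from dissociation and the number of other cells set such shares too, so more ependymal cells and fewer other cells cannot be told apart.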

How the data were processed

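Single cells of 4 mouse brains were analysed from the unnormalised UMI counts per gene and barcode that the authors deposited, made with Cell Ranger 3.1.0 on a GRCm38 reference with Ensembl release 98 annotation (55573 genes, 1 matrix per mouse). Totals per mouse were 88248117 to 115814810 UMIs. Limits on UMIs, mitochondrial share and marker UMIs chose ependymal cells, astrocytes and choroid plexus epithelium, and the members and gene lists were chosen with earlier results of these data known. Doublets were scored with Scrublet in scanpy 1.11.5 (expected rate 0.08) and kept. Counts were summed per mouse and class and tested with edgeR 4.0.16 (R 4.3.3; TMM, filterByExpr, glmQLFit and glmQLFTest, Benjamini-Hochberg adjustment), and genes were called at a fold of at least 1.5 with adjusted p below 0.05. Differences between classes were tested in 1 model with mouse as a block. The 2 mice of an age differ in diet, so the spread used in the tests of age includes diet, and with 1 mouse per age and diet it also includes any difference between individual mice. Likewise the 2 mice of a diet differ in age, so the spread used in the tests of diet without age as a covariate includes age. The labels name both sexes in a protocol and the study's methods give males. CPM are TMM-scaled unless called unscaled, and the summed levels of marker lists are unscaled. Shares were compared with the exact permutation test in scipy 1.17.1.

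Named genes were the genes of the rule, the 12 highest and 12 lowest log2 fold changes of each comparison among called genes with at least 20 CPM and groups that did not overlap (leaving out Gm and Rik names and mitochondrial genes), the called members of each list or the 6 with the smallest p, the 4 most abundant members of a list, and the 15 largest folds over other barcodes at 50 CPM or more. Other genes named were chosen after their values were seen. Alternatives were DESeq2 1.42.0, RLE size factors, no filter on low counts, diet or age as a covariate, each mouse left out, other limits on UMIs and markers, members without doublets or without markers of microglia, endothelial cells, oligodendrocytes, neurons or red blood cells, and thinning to 2000 UMIs. The stricter limit on those markers, the limit of 3 choroid plexus UMIs and the thinning of both classes were chosen after seeing the data. The tests were tested on simulated data. Coordinates are of GENCODE M21 (GRCm38). Among members, 22 barcode sequences also occurred in another mouse, and 0 were members in more than 1 mouse.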

Additional observations from a re-analysis of the deposited data

Results flagged for a closer look

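The age effect was tested for a difference between ependymal cells and another class of the same mice, in edgeR with mouse as a block, and each value here passed that test. Values are differences of log2 fold changes, ependymal cells minus the other class. The genes named are the highest and lowest among called genes with a mean of at least 20 CPM that met the naming rule, and rarer genes with more extreme values passed the test as well. Among these were Apol9b (9.13, a fitted value that depends on the prior count, since adult ependymal cells had 0 UMIs) and H2-Q6 (3.52) against astrocytes, and H2-Q6 (3.68) and Cldn11 (-6.32) against choroid plexus epithelium. Against astrocytes 109 genes were more positive and 42 more negative. The interferon-related genes Ifi44 (5.10), Cxcl10 (4.04), Ifi27l2a (3.94), Isg15 (3.81), Iigp1 (3.41), Oasl2 (3.08), Bst2 (2.99), H2-T23 (2.96), Ifit1 (2.92), Irf7 (2.76) and Ifit3b (2.59) had the highest values of those, together with AW011738 (3.38). Cldn11 (-4.33), Col25a1 (-3.35), Rbp4 (-3.04), Hspb1 (-2.35), Islr (-2.29), Tnr (-2.15), Igfbp6 (-2.04), Ptgis (-2.04), Ccnd2 (-1.70), Sox11 (-1.68), Rspo3 (-1.58) and Ptgds (-1.42) had the lowest. In ependymal cells 28 of the 36 Cldn11 UMIs of the adult mouse fed 0% inulin lay in 1 barcode. Col25a1 had 8, 10, 3 and 1 UMIs in ependymal cells, too few for a test there alone, and 6 of the 8 lay in 1 barcode. It could be tested in astrocytes alone (log2 fold change 0.89, not called), so its difference is no result about ependymal cells. Rbp4 had a log2 fold change of -0.26 in ependymal cells alone and of 2.73 in astrocytes alone. When 1 mouse was left out, 3 of these 24 genes lost the call (Ptgis, Ptgds and Col25a1), with adjusted p (edgeR) of 0.0616 to 0.139, the last for Col25a1 without the adult mouse fed 5% inulin (-2.91). The part of RNA from other cells in these values was not tested.

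Against choroid plexus epithelium 49 genes were more positive and 21 more negative. At that level the highest values were those of Ifi44 (3.29), Iigp1 (2.93), Psmb8 (2.58), H2-T23 (2.28), Ifi27 (1.83), Caly (1.83), Gbp7 (1.79), Trim30a (1.76), H2-T22 (1.68), Psmb9 (1.61), Hmgb2 (1.57) and Pou3f2 (1.56). In ependymal cells alone Pou3f2 had a log2 fold change of 0.0085 and Hmgb2 of 0.41, against -1.58 and -1.20 in choroid plexus epithelium alone. Neither gene was called in either class. The lowest at that level were those of Islr (-2.21), Jakmip2 (-2.11), Hspb1 (-1.70), Ptgds (-1.62), Apod (-1.56), Cdr2 (-1.24), Slc7a4 (-1.16), Hist1h2ac (-1.03), Krt18 (-0.91), Enpp2 (-0.89), Ttr (-0.84) and Sostdc1 (-0.83). Without the aged mouse fed 0% inulin 24 genes were more positive and 10 more negative. Of the 24 named genes, 14 lost the call when 1 mouse was left out (Ifi44, Caly, Gbp7, Psmb9, Hmgb2, Pou3f2, Islr, Jakmip2, Ptgds, Apod, Cdr2, Slc7a4, Hist1h2ac and Sostdc1), with adjusted p (edgeR) of 0.0593 to 0.404, and 10 kept it.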

How the results depend on the processing

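Each comparison rested on 2 mice against 2, and leaving out a mouse leaves 1 mouse in an arm, which is then assumed to vary like the other arm. For age, 146 genes were higher and 42 lower with DESeq2, 389 and 209 without a filter on low counts, and 92 and 40 after thinning to 2000 UMIs, where fewer genes could be tested. Leaving out a mouse gave 215 to 343 higher and 117 to 261 lower. For diet, DESeq2 called 3 genes higher, the fit without a filter 77 higher and 16 lower, and age as a covariate 6 higher, and leaving out a mouse gave 0 to 3 higher and 0 to 1 lower. Against astrocytes, 60 genes were more positive and 23 more negative with DESeq2, 376 and 195 without a filter, and 41 and 14 with both classes thinned, and leaving out a mouse gave 113 to 244 and 48 to 168. Against choroid plexus epithelium the counts were 31 and 12 with DESeq2, 184 and 119 without a filter, 74 and 32 without members holding markers of the 5 types counted (microglia, endothelial cells, oligodendrocytes, neurons and red blood cells), and 11 and 11 with both classes thinned, and leaving out a mouse gave 24 to 111 and 10 to 68. The cause of these shifts was not tested. The difference of Ptgis from astrocytes was 3.20 with both classes thinned (adjusted p = 0.926, edgeR), on few UMIs. Of the other values of named genes under the alternatives, 629 of the age effects kept their call and 59 lost it, 190 and 25 did so against astrocytes, and 156 and 60 against choroid plexus epithelium. Across the alternatives 43 to 53 interferon genes were higher and 14 to 18 heat shock genes lower with age. The difference in the share of ependymal cells was 0.905 to 1.62 points with a mouse left out.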
